A study of Homo sapiens with 16 samples.

Results

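This report describes the genes for the subunits of RNA polymerase I, II and III in H1299 cells after knockdown of YEATS2. The members are all genes of the deposited RNA-seq count table whose symbol begins with POLR1, POLR2 or POLR3, which gave 31 of 12676 genes. H1299 is an established line from a human non-small cell lung carcinoma. The control group (shCtrl, 2 libraries) was infected with a vector carrying a non-targeting shRNA (shNT), and the knockdown group (shYEATS2, 2 libraries) with an shRNA against YEATS2, a scaffolding subunit of the ATAC histone acetyltransferase complex. Both groups of cells were exposed to virus with polybrene at 8 µg/ml and, 48 h later, selected with puromycin at 2 µg/ml for 4 to 7 days by the labels, a span that the paper's methods give as shorter. The labels do not name the shRNA. The paper used 2 sequences and describes the duplicate experiment with 1 of them, so an effect of that sequence and an effect of YEATS2 loss cannot be told apart in these libraries.

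Eukaryotic cells divide nuclear transcription between these enzymes. RNA polymerase I (Pol I) makes the precursor of the large ribosomal RNAs, Pol II makes mRNAs and many small nuclear RNAs, and Pol III makes tRNAs, 5S ribosomal RNA and other short RNAs. Each enzyme has a catalytic centre built from its own pair of largest subunits, a small set of subunits common to all of them, an assembly platform that Pol I and Pol III share, and peripheral subunits for initiation, elongation or termination. Rapidly dividing tumour cells depend on high output of all 3 enzymes for ribosomes and tRNAs.

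The members were sorted by the enzyme they belong to. There were 3 Pol I-specific genes (POLR1A, POLR1B, POLR1E), 2 shared by Pol I and Pol III (POLR1C, POLR1D) and 5 shared by all enzymes (POLR2E, POLR2F, POLR2H, POLR2K, POLR2L). Another 7 were specific to Pol II, 1 (POLR2M) encodes a protein that binds Pol II, 3 were copies of POLR2J, and 10 were Pol III-specific. POLR2J4 is listed under 2 identifiers. In the annotation used here they are typed as a long non-coding RNA and a transcribed pseudogene, not as protein-coding genes. Values are reads scaled for library size by the TMM method of edgeR to the mean size of the 4 libraries, called scaled reads below. Each gene was fitted by the quasi-likelihood test of edgeR. Its p-values were adjusted over all 12676 genes by the Benjamini-Hochberg method, and the threshold was a false discovery rate (FDR) under 0.01. The libraries held 34718921 to 39417787 reads in listed genes. YEATS2 itself had 4482 and 4104 scaled reads in the shCtrl libraries and 665 and 673 in the shYEATS2 libraries. Of the fixed markers of H1299 and of epithelial or mesenchymal cells, 5 of 8 were in the table (KRT8, KRT18, VIM and CDH2 among them) and none of them was called, whereas EPCAM, CDH1 and NKX2-1 were not listed. None of 9 markers of blood, endothelial or fibroblast cells was listed, and the table lists only genes with at least 101 reads in some library. Fewer cells of a type and less RNA per cell cannot be told apart in bulk libraries, and RNA made from these promoters was not measured apart from its stability.

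None of the 31 RNA polymerase genes passed the threshold in either direction (edgeR's quasi-likelihood test). Across all genes tested, 12.5% were called lower and 12.9% higher. At an unadjusted p under 0.05, 8 members were lower and 2 higher, against 27.8% and 28.7% of all genes. At an FDR under 0.05, 6 were lower (POLR1E, POLR1C, POLR2D, POLR2K, POLR2E and POLR2M) and 2 were higher (POLR3B and POLR2A), against 23.8% and 24.4% of all genes. None of these 8 calls at 0.05 held in every fit that left out a single library. Such fits have 1 library in a group, and the number called over all genes also moved in them. The log2 fold changes kept their direction, from -0.67 to -0.44 for POLR1E, -0.70 to -0.36 for POLR1C and -0.52 to -0.30 for POLR2D. They ran from -0.43 to -0.28 for POLR2K, -0.50 to -0.21 for POLR2E and -0.41 to -0.26 for POLR2M. For POLR3B they ran from 0.35 to 0.48 and for POLR2A from 0.22 to 0.34. Other tools called a few of these 8 genes at 0.01. DESeq2 called POLR1E, POLR1C and POLR2D lower and none higher, where it called 17.3% of all genes lower and 17% higher. With exactTest of edgeR the same 3 genes were called lower, as were 19.7% of all genes, and POLR3B was called higher, as were 20.5%.

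The fitted changes were small in both directions. The median size of the log2 fold change, regardless of sign, was 0.23 for the members and 0.37 for all genes tested. The members ranged from -0.55 for POLR1E to 0.49 for POLR2J3, and none reached 1 on the log2 scale, which 11.2% of all genes did. Of the 31 members, 25 lay between -0.35 and 0.38, the range that holds the middle 50% of all genes. The 95% interval of the fold change lay within 1.5-fold in either direction for 20 members (64.5%), against 38.9% of all genes. It lay within 2-fold for 30 members (96.8%), against 73.3% of all genes. The exception was POLR2J4 (ENSG00000214783), with 56 to 103 reads per library and an interval from -0.087 to 1.03. The members had a median standard error of 0.11 on the log2 scale.

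**Figure D1:**
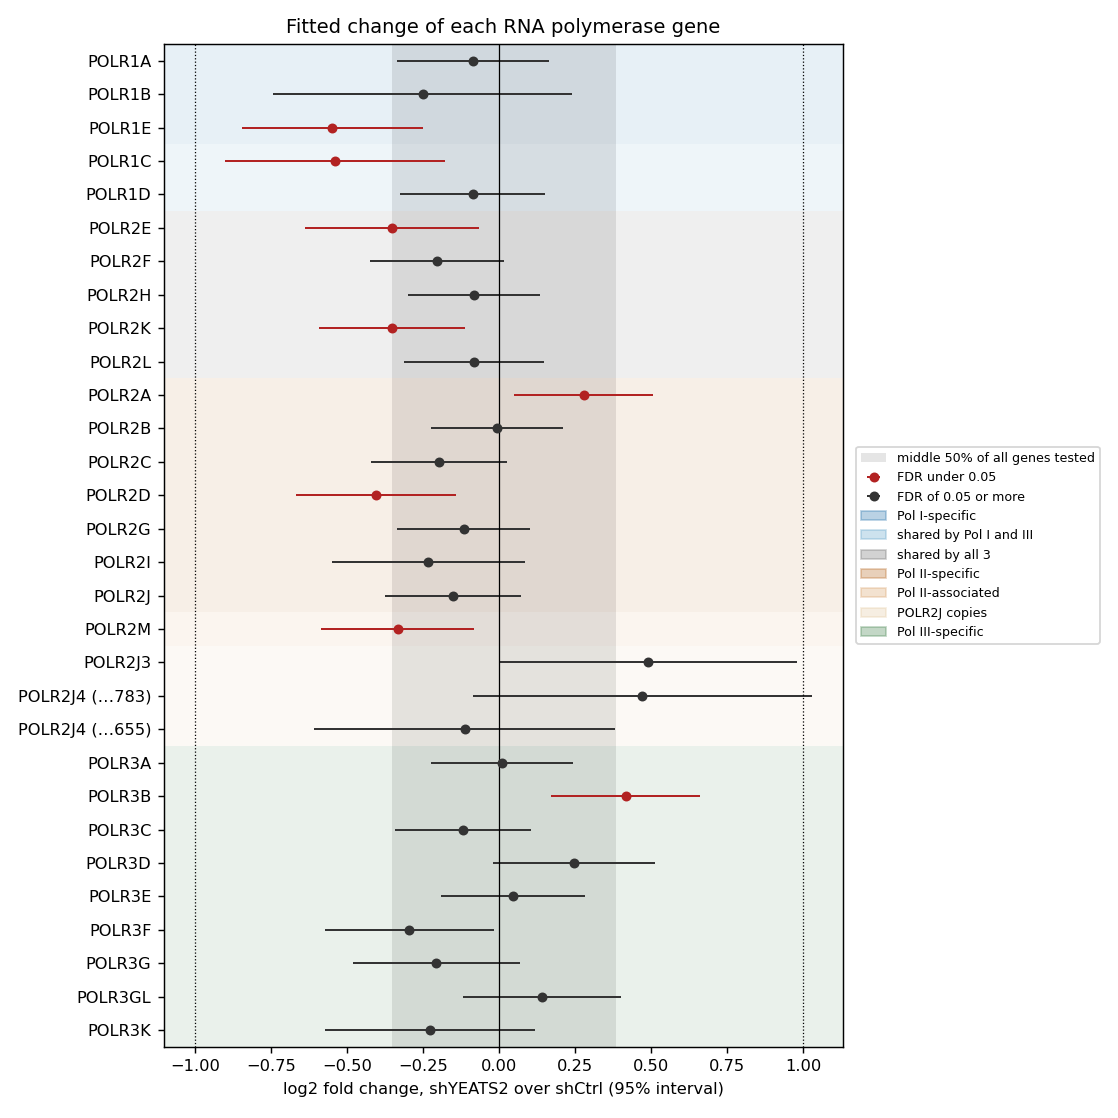
Log2 fold change of shYEATS2 over shCtrl (x axis) for 30 of the RNA polymerase genes, as points with 95% intervals from edgeR's quasi-likelihood fit; red marks an FDR under 0.05, coloured bands the classes, the grey band the middle 50% of all genes and dotted lines a 2-fold change. The 8 red points sit between -0.55 and 0.42, and every point lies inside the dotted lines.

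More members lay below 0 than above it. In 16 members both knockdown libraries lay below both controls, as in 39.8% of all genes, and in 6 they lay above, as in 39.7% of all genes. The groups of these 22 did not overlap, against 79.6% of all genes in either direction. On the TMM scale 23 of 31 were negative and 8 positive, with a median log2 fold change of -0.12, whereas 50.1% of all genes were negative. The direction of the weakest members depends on the scaling. With total counts in place of TMM the median of all genes moved from -0.0019 to 0.12, and the share of called genes that were higher moved from 50.8% to 67.0%. On that scale 15 members were negative and 16 positive, and again 23 of 31 lay below the median of all genes. By class, the medians on the TMM scale were -0.25 for the Pol I-specific genes, -0.31 for the pair shared by Pol I and Pol III, -0.20 for the subunits common to all enzymes, -0.15 for the Pol II-specific and -0.056 for the Pol III-specific genes. With total counts the Pol III median was 0.064. The Pol I-specific median rests on 3 genes and ranged from -0.51 without shYEATS2 replicate 1 to -0.022 without shCtrl replicate 1, with -0.48 without shCtrl replicate 2 and -0.032 without shYEATS2 replicate 2.

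**Figure D2:**
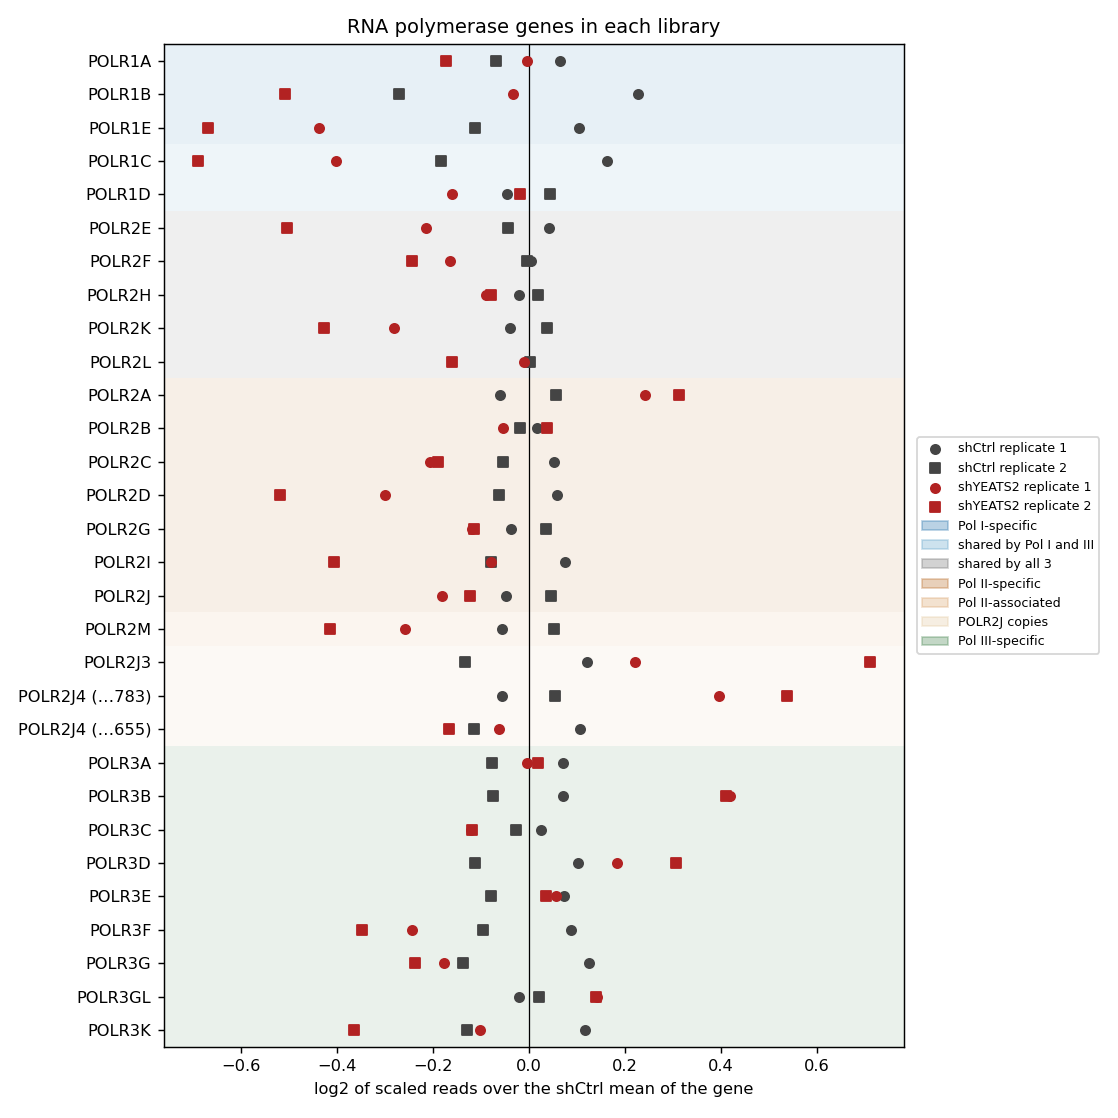
Scaled reads of 30 RNA polymerase genes in each library, as log2 over the shCtrl mean of that gene (x axis); grey marks are shCtrl and red marks shYEATS2 libraries, circles replicate 1 and squares replicate 2. In 15 genes both red marks lie left of both grey marks and in 6 genes right of them, and in the remaining 9 the groups overlap.

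Among the Pol I-specific genes, POLR1A encodes the largest subunit, which forms the catalytic centre with the POLR1B product. POLR1A had 5717 and 5213 scaled reads in shCtrl and 5451 and 4850 in shYEATS2 libraries, and the groups overlapped. POLR1B had 4274 and 3022 in shCtrl and 3565 and 2565 in shYEATS2 libraries. In both groups replicate 1 of POLR1B was higher than replicate 2, by 1.41-fold and 1.39-fold. This spread was larger than the difference between groups (log2 fold change -0.25, 95% interval -0.74 to 0.24), but it ran the same way in both. With the replicate number as a block the log2 fold change was -0.25 and the FDR 0.0309 (edgeR's quasi-likelihood test), against 0.342 without the block. Replicates with 1 number share only that number in the labels. Without shCtrl replicate 1 the value of POLR1B was 0.015.

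POLR1E encodes a peripheral subunit that helps Pol I initiate and elongate. The gene lies on chromosome 9 of GRCh37 (hg19) from 37485945 to 37503694 on the plus strand. It had 3784 and 3258 scaled reads in shCtrl and 2600 and 2215 in shYEATS2 libraries. Both knockdown libraries lay below both controls, at 0.684 times the control mean. The log2 fold change was -0.55 (standard error 0.12), and its FDR was 0.0122 (edgeR's quasi-likelihood test), the lowest FDR among the members, and ranged from -0.67 to -0.44 as each library was left out. Without shYEATS2 replicate 1 it passed the threshold, with an FDR of 0.00591, and without shCtrl replicate 1 the FDR was 0.0669.

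The remaining Pol I-specific subunits carry other symbols in this table and were read from a fixed list. All 3 were present. CD3EAP, the partner of POLR1E in a heterodimer at the edge of Pol I, had 2273 and 1851 scaled reads in shCtrl and 1103 and 628 in shYEATS2 libraries. It fell by 1.25 on the log2 scale (standard error 0.25, FDR 0.00776, edgeR's quasi-likelihood test). Its FDR was 0.0132 without shCtrl replicate 1. ZNRD1, a zinc ribbon subunit involved in RNA cleavage, had 1205 and 1013 scaled reads in shCtrl and 765 and 552 in shYEATS2 libraries. Its log2 fold change was -0.75 (FDR 0.0138), and it passed the threshold with exactTest (0.000526), with DESeq2 (0.000560) and without shYEATS2 replicate 1 (0.00245). TWISTNB, a stalk subunit that contacts the initiation factor RRN3, had a log2 fold change of -0.35 (FDR 0.0605). These 2 genes were named as subunits although they did not pass. Over all 6 Pol I-specific subunits the log2 fold changes were negative on the TMM scale, with a median of -0.45, and 1 of 6 was called lower against 12.5% of all genes. With total counts POLR1A was at 0.035 and the other Pol I-specific subunits stayed negative.

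POLR1C and POLR1D form the assembly platform of Pol I and Pol III. POLR1C lies on chromosome 6 of GRCh37 from 43477440 to 43530156 on the plus strand. It had 2411 and 1896 scaled reads in shCtrl and 1630 and 1335 in shYEATS2 libraries, so the knockdown libraries lay below both controls. Its log2 fold change was -0.54 (standard error 0.15, FDR 0.0253, edgeR's quasi-likelihood test), and the replicates within groups differed by 1.27-fold and 1.22-fold. The value was -0.36 without shCtrl replicate 1 and -0.70 without shCtrl replicate 2. POLR1D had 1640 and 1744 scaled reads in shCtrl and 1514 and 1670 in shYEATS2 libraries, groups that overlap (log2 fold change -0.088, 95% interval -0.33 to 0.15). The difference between these partners was not tested.

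The subunits common to all 3 enzymes form the frame around the catalytic centre. All 5 had both knockdown libraries below both controls, as 39.8% of all genes had. POLR2E had 9260 and 8734 scaled reads in shCtrl and 7757 and 6340 in shYEATS2 libraries (log2 fold change -0.35, standard error 0.12, FDR 0.0482). Its value was -0.50 without shYEATS2 replicate 1, where it passed the threshold (FDR 0.00765), and -0.21 without shYEATS2 replicate 2 (FDR 0.150). POLR2K, a small zinc-binding subunit, had 3225 and 3400 in shCtrl and 2728 and 2462 in shYEATS2 libraries (log2 fold change -0.35, standard error 0.10, FDR 0.0270). These knockdown means were 0.783 times the control mean for either gene. POLR2F had 1790 and 1781 scaled reads in shCtrl and 1594 and 1509 in shYEATS2 libraries, with an FDR of 0.109. POLR2H and POLR2L were each at -0.08, with intervals from -0.30 to 0.13 and from -0.31 to 0.15. With total counts 3 of the 5 were negative. POLR2E lies on chromosome 19 of GRCh37 (1086573 to 1095379) and POLR2K on chromosome 8 (101162851 to 101166231).

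The Pol II-specific genes included values on both sides of 0. POLR2A, on chromosome 17 of GRCh37 from 7387685 to 7417933, encodes the largest subunit with the C-terminal repeat domain that is phosphorylated during transcription. It had 18763 and 20349 scaled reads in shCtrl and 23137 and 24296 in shYEATS2 libraries, above both controls (1.21 times the control mean, log2 fold change 0.28, standard error 0.096, FDR 0.0494). POLR2B, whose product completes the catalytic centre, had 5833 and 5694 in shCtrl and 5553 and 5921 in shYEATS2 libraries, with a log2 fold change of -0.0067 and a 95% interval from -0.22 to 0.21. The ratio of POLR2A reads to POLR2B reads within a library does not depend on scaling. It was 3.22 and 3.57 in shCtrl and 4.17 and 4.10 in shYEATS2 libraries, a pair chosen after the values had been seen.

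POLR2D encodes a subunit of the Pol II stalk and lies on chromosome 2 of GRCh37 from 128601127 to 128615729 on the minus strand. It had 5582 and 5129 scaled reads in shCtrl and 4352 and 3740 in shYEATS2 libraries. Both knockdown libraries lay below the controls (log2 fold change -0.40, standard error 0.11, FDR 0.0233), and the FDR was 0.00816 without shYEATS2 replicate 1. It was 0.133 without shCtrl replicate 1, 0.0551 without shCtrl replicate 2 and 0.0695 without shYEATS2 replicate 2. Its stalk partner POLR2G had 2615 and 2751 in shCtrl and 2472 and 2478 in shYEATS2 libraries, a difference of -0.12 with an interval from -0.33 to 0.10. POLR2C and POLR2J, the Pol II counterparts of POLR1C and POLR1D, were at -0.20 and -0.15, with FDR values of 0.121 and 0.217. POLR2I, a subunit used in RNA cleavage and proofreading, was at -0.23 with an FDR of 0.186, and ranged from -0.41 without shYEATS2 replicate 1 to -0.077 without shYEATS2 replicate 2.

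POLR2M encodes Gdown1, a protein that binds Pol II and makes its activity depend on the Mediator complex. It lies on chromosome 15 of GRCh37 from 57998893 to 58074960. It had 1603 and 1729 scaled reads in shCtrl and 1394 and 1250 in shYEATS2 libraries (log2 fold change -0.33, standard error 0.11, FDR 0.0374). The POLR2J copies on chromosome 7 share sequence with POLR2J, so their reads may be split or lost in counting. POLR2J3 had 260 and 218 scaled reads in shCtrl and 279 and 392 in shYEATS2 libraries (log2 fold change 0.49, FDR 0.0886). Its value was 0.22 without shYEATS2 replicate 2, which held the highest count. The POLR2J4 entry ENSG00000214783 had 60.3 and 65.1 scaled reads in shCtrl and 82.5 and 91.1 in shYEATS2 libraries (0.47, FDR 0.136), and ENSG00000272655, which lies within it, had 130 and 112 against 116 and 108 (-0.11, FDR 0.673).

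The Pol III-specific genes were divided between higher and lower values, with 5 negative and 5 positive. POLR3A and POLR3B encode the pair of subunits that form the Pol III catalytic centre. POLR3B, on chromosome 12 of GRCh37 from 106751526 to 106903976 on the plus strand, had 1141 and 1032 scaled reads in shCtrl and 1453 and 1445 in shYEATS2 libraries. Both knockdown libraries lay above both controls, at 1.33 times the control mean (log2 fold change 0.42, standard error 0.10, FDR 0.0165). Its value lay between 0.35 and 0.48 as each library was left out. Its FDR was 0.00568 with total counts, 0.0533 without shCtrl replicate 1 and 0.135 without shCtrl replicate 2. POLR3A had 2550 and 2301 in shCtrl and 2418 and 2460 in shYEATS2 libraries (log2 fold change 0.0080, 95% interval -0.23 to 0.24). The number of POLR3A reads for each POLR3B read was 2.24 and 2.23 in shCtrl and 1.66 and 1.70 in shYEATS2 libraries. These groups did not overlap, but 2 libraries in each are too few to measure the spread of the ratio. This pair was also chosen after its values had been seen.

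POLR3C, POLR3F and either POLR3G or its paralog POLR3GL form the initiation arm of Pol III, and POLR3G is the form known from stem cells and tumours. POLR3C had 1510 and 1457 scaled reads in shCtrl and 1364 and 1367 in shYEATS2 libraries (log2 fold change -0.12, FDR 0.321). POLR3F had 1062 and 935 in shCtrl and 843 and 785 in shYEATS2 libraries (-0.29, FDR 0.0757). POLR3G had 2122 and 1769 in shCtrl and 1722 and 1652 in shYEATS2 libraries (-0.21, FDR 0.177). POLR3GL went the other way, with 622 and 640 in shCtrl and 697 and 695 in shYEATS2 libraries (0.14, FDR 0.314). The number of POLR3G reads for each POLR3GL read, a ratio within each library, was 3.41 and 2.76 in shCtrl and 2.47 and 2.38 in shYEATS2 libraries. These groups did not overlap, but shCtrl replicate 2 lay nearer to the knockdown libraries than to shCtrl replicate 1.

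POLR3D and POLR3E form the heterodimer for termination and reinitiation. POLR3D had 1684 and 1452 scaled reads in shCtrl and 1780 and 1939 in shYEATS2 libraries (log2 fold change 0.25, FDR 0.109), and POLR3E had 1740 and 1567 against 1719 and 1694 (0.046, FDR 0.721). POLR3K, used in RNA cleavage at termination, was at -0.23 (FDR 0.228). CRCP, a stalk subunit of Pol III, has no POLR3 symbol here and was read from a fixed list. It had 2893 and 2726 scaled reads in shCtrl and 4938 and 5318 in shYEATS2 libraries. It rose by 0.87 on the log2 scale (standard error 0.097, FDR 0.00137, edgeR's quasi-likelihood test), with values from 0.81 to 0.92 as each library was left out.

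Levels can be compared between genes only per length, for which the MANE Select transcript was used, available for 27 of the 31 members. In shCtrl libraries POLR2I was highest with 6676 ± 503 scaled reads per kilobase (SD, n = 2), followed by POLR2L with 6102 ± 15.3, with both POLR2I libraries (7031 and 6320) above both POLR2L libraries (6091 and 6113). POLR3B was lowest with 260 ± 18.4, below POLR3D with 294 ± 30.8, a pair whose libraries did not differ beyond their spread. All 10 Pol III-specific members had means between 260 and 591 reads per kilobase. All 6 Pol II-specific genes with a length had means between 1063 and 6676, so these classes did not overlap among the genes compared. CRCP is not a member and POLR2A had no such length, so neither was compared. The large Pol I subunits were near the Pol III genes, with 438 ± 28.6 for POLR1A and 485 ± 118 for POLR1B. POLR1E stood at 1898 ± 201 per kilobase. In shYEATS2 libraries the Pol III-specific means ran from 339 to 591 and the Pol II-specific means from 803 to 5680. The order of the 27 genes shifted by at most 5 places. POLR3B and POLR3D, lowest in shCtrl, reached 346 ± 1.45 and 348 ± 21.0 per kilobase, near POLR3A with 369 ± 4.44.

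**Figure D3:**
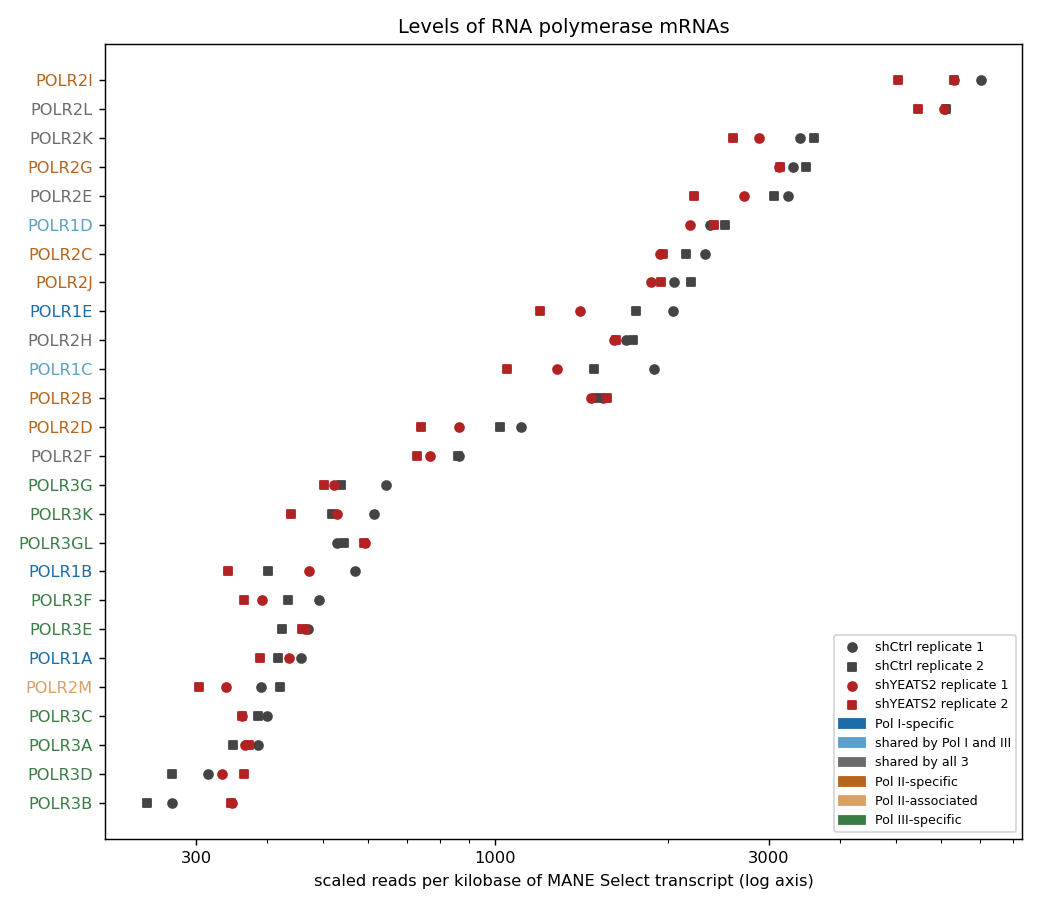
Scaled reads per kilobase of MANE Select transcript (x axis, log scale) for 26 RNA polymerase genes in each library, ordered by shCtrl mean; grey marks are shCtrl and red marks shYEATS2 libraries, and name colours give the class. Pol III-specific genes fill the lower end, at means of 260 to 591 in shCtrl, under all Pol II-specific genes shown.

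The genes were also summed by class, as CPM (reads of the class for a fixed total of reads in the table, before TMM), with no test. All members together took 2602 and 2544 CPM in shCtrl and 2702 and 2599 in shYEATS2 libraries, ranges that overlap. On the TMM scale the same sums were 99582 and 95828 scaled reads in shCtrl and 94675 and 90581 in shYEATS2 libraries, both below the controls, so the direction of the total depends on the scaling. The Pol I-specific genes took 360 and 305 in shCtrl and 332 and 276 in shYEATS2 libraries, also overlapping. The subunits common to all enzymes took 592 and 595 against 579 and 517. The pair shared by Pol I and Pol III took 106 and 96.7 in shCtrl and 89.7 and 86.2 in shYEATS2 libraries. The Pol II-specific genes took 1095 and 1130 in shCtrl and 1241 and 1261 in shYEATS2 libraries. Their sums on the TMM scale were 41918 and 42572 against 43486 and 43948 scaled reads. POLR2A alone held 18763 and 20349 of those scaled reads in shCtrl and 23137 and 24296 in shYEATS2 libraries. It was the only 1 of the 7 genes with a positive log2 fold change, and 6 were negative. The Pol III-specific genes took 395 and 361 against 407 and 406 CPM. On the TMM scale the Pol III-specific sums were 15122 and 13591 against 14262 and 14131 scaled reads, which overlap.

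Promoter windows from 250 bases before to 50 bases after the start were taken from RefSeq (GRCh38.p14), which held 26 windows for 20 members. POLR1E, POLR2G, POLR2I, POLR2J, POLR2J3, POLR2J4, POLR2K, POLR3D and POLR3G are among those with no entry in that table. The windows were searched on both strands for exact letters of 5 motifs. The windows they are set against were not limited to genes in the count table or matched for expression. The ETS motif CCGGAAGT was in 6 of 26 windows (23.1%, against 4.14% of all 35116 windows), in POLR1B, POLR1C, POLR2C, POLR2F and POLR3A. The NRF1 motif GCATGCGC was in 4 windows (15.4% against 3.05%), in POLR2F, POLR2H and POLR3B. POLR2F counts for both motifs, with overlapping windows. POLR2H and POLR3B each have another window without the NRF1 motif, as POLR1B has without the ETS motif. The share of G and C bases had a median of 63% in the windows of members and 58.7% in all windows. The E-box CACGTG was in 3 windows (11.5% against 7.26%), in POLR3A, POLR3C and POLR3E. The YY1 motif AAGATGGCG was in 1 window (3.85% against 1.75%), in POLR1C, and the TATA box TATAAA in 1 (3.85% against 11.5%), in POLR2M. None of these motifs is part of another, although the NRF1 motif overlaps its own reverse complement in POLR2F, POLR2H and POLR3B. The genes with an ETS match had log2 fold changes from -0.54 for POLR1C to 0.0080 for POLR3A. A match of letters is a description and not a binding site. The study's list of genes with peaks of ZZZ3, another ATAC subunit, holds POLR1B, POLR1E and POLR3B among the members. Their values above were -0.25, -0.55 and 0.42. The share of all genes on that list was not counted, and a link between the peaks and these values was not tested. The windows below are those of the lowest and the highest member with a motif match whose FDR was under 0.05, and of the ZZZ3-listed Pol I gene with an entry. Capitals mark the matches, each sequence reads 5′ to 3′ on the plus strand, and they lie at chr6:43516839-43517138, chr2:112542215-112542514 and chr12:106357860-106358159, where the last 2 are the second of 2 starts.
POLR1C: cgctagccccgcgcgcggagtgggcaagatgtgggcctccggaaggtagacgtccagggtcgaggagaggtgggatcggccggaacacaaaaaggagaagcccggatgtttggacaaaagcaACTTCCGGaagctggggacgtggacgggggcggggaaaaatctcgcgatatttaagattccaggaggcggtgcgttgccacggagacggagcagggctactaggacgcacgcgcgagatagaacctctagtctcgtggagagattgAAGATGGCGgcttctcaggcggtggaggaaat
POLR1B: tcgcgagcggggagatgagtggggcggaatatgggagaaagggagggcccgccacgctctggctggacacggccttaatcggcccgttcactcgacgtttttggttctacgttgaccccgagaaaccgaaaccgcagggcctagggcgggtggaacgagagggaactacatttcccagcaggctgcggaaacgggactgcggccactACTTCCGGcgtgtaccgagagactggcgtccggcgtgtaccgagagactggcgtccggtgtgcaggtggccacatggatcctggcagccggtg
POLR3B: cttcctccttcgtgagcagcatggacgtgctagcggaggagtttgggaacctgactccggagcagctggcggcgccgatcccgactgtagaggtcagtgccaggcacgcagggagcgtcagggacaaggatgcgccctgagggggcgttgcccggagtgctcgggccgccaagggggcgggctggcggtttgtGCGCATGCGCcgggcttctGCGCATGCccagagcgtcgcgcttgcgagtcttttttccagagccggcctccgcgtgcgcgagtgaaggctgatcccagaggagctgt

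Partners of the polymerases were read from fixed lists. Of 8 Pol I initiation and termination factors, 1 was called lower and none higher, with a median log2 fold change of -0.32. The gene called was UBTF, which binds ribosomal DNA and recruits the Pol I machinery. It had 7915 and 7384 scaled reads in shCtrl and 5339 and 4556 in shYEATS2 libraries (log2 fold change -0.63, standard error 0.11, FDR 0.00512). Of 16 Pol III initiation factors and their repressor, 1 was lower and 1 higher, with a median of -0.15. GTF3A, the 5S RNA gene factor TFIIIA, had 3704 and 3999 in shCtrl and 2700 and 2429 in shYEATS2 libraries (-0.59, FDR 0.00510). BRF2, which serves the promoters of U6-type small RNA genes, had 391 and 373 in shCtrl and 687 and 941 in shYEATS2 libraries (1.09, standard error 0.17, FDR 0.00353). These counts stand beside 12.5% lower and 12.9% higher among all genes.

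Factors that assemble RNA polymerases in the cytoplasm and bring them to the nucleus formed another list. Of 14 such genes, 5 were lower and 1 higher, where 12.5% and 12.9% of all genes were, and the median log2 fold change was -0.34. Whether this list differs from other genes was not tested. URI1, a prefoldin-like chaperone subunit that binds POLR2E, had 8555 and 8322 scaled reads in shCtrl and 3325 and 2218 in shYEATS2 libraries. It fell by 1.61 on the log2 scale (standard error 0.18, FDR 0.00146, edgeR's quasi-likelihood test) and ranged from -1.93 to -1.34 as each library was left out. The other genes called lower were its prefoldin-like partner UXT (-0.84, FDR 0.00258), the AAA+ ATPase RUVBL2 (-0.80, FDR 0.00260), the GTPase GPN3 (-0.62, FDR 0.00529) and RUVBL1 (-0.52, FDR 0.00836). PDRG1, another member of the prefoldin-like complex, was higher (0.57, FDR 0.00572). RPAP1, RPAP3, GPN1 and GPN2 were not called, with values of 0.12, -0.26, -0.052 and -0.11. RUVBL1, PDRG1 and these 4 genes were named after their values had been seen.

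With each library left out the fits have fewer samples, and some of these genes lost the call. Without shCtrl replicate 1 the FDR was 0.0255 for UBTF, 0.0136 for GTF3A, 0.0201 for GPN3, 0.0468 for RUVBL1 and 0.0190 for PDRG1. Without shCtrl replicate 2 the values were 0.0126, 0.0288, 0.0257, 0.0303 and 0.0386, and without shYEATS2 replicate 2 they were 0.0116, 0.0132, 0.0132, 0.0214 and 0.0143, in the same order. CRCP, BRF2, URI1, UXT and RUVBL2 stayed past the threshold in all 4 of these fits. With total counts GTF3A (0.0102), GPN3 (0.0101) and RUVBL1 (0.0181) did not pass.

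**Figure D4:**
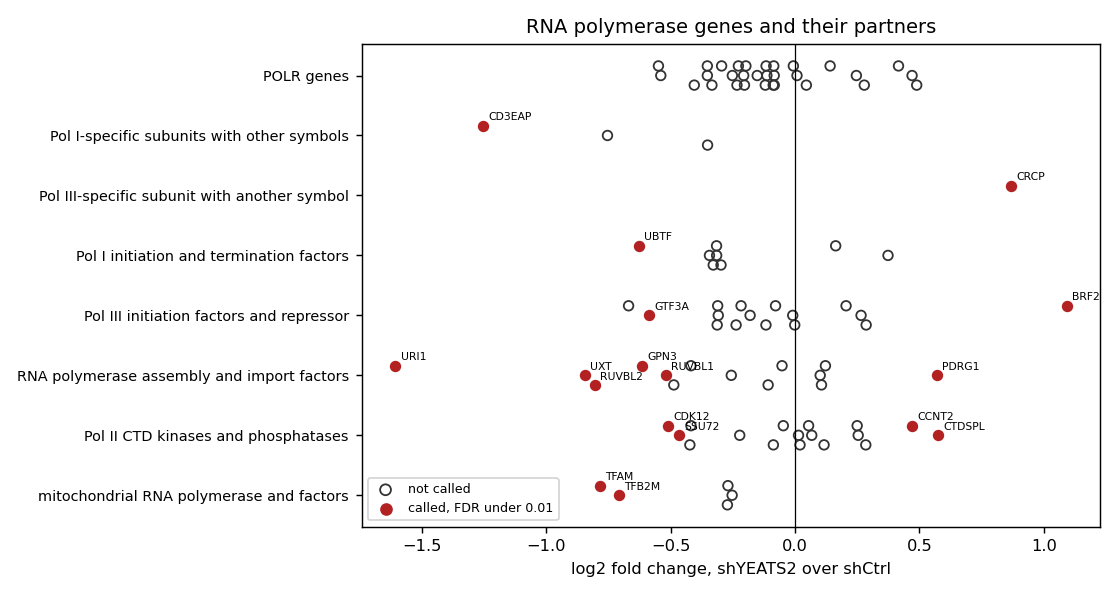
Log2 fold change of shYEATS2 over shCtrl (x axis) for 30 RNA polymerase genes and for fixed lists of other subunits and partner factors (rows); each circle is 1 gene, spread vertically for visibility, and filled circles passed an FDR of 0.01. The top row has no filled circle and spans -0.55 to 0.49, whereas URI1 lies at -1.61, CD3EAP at -1.25 and BRF2 at 1.09.

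Some members may lose reads to neighbours or gain reads from them, which was not examined. The library kit does not mark strand and the exons of 10 members overlap those of a listed gene on the opposite strand in the annotation used here, POLR1C and POLR2E among them, so reads from such genes and their antisense partners cannot be told apart.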

How the data were processed

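RNA-seq libraries of shCtrl and shYEATS2 H1299 cells (2 each, called biological replicates in the paper) were grouped by their labels. The labels do not say whether they came from separate cultures, so p-values measure the spread between these libraries, which may be technical. By its methods, the RNA-Seq unified mapper placed the reads on hg19. The authors then deposited unnormalized gene counts made with HTSeq (0.6.1p1 per the labels) at default parameters. HTSeq by default counts by strand, whereas the kit does not mark strand, so the setting used is uncertain, which bears on read levels and on antisense overlaps. The gene annotation is not given in the sources used here. The submitters' processing notes also name TopHat2 2.0.10. The table holds no gene under 101 reads in every library. It also holds the authors' log2 fold changes, p-values and FDR values as deposited, which were not used. ChIP-seq samples were not analysed here.

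A filter of 10 reads in 2 or more libraries removed none of the 12676 genes, which were fitted with edgeR 4.0.16 (R 4.3.3), TMM scaling and no replicate block. Standard errors were taken as the fold change over the root of F. Members and lists were chosen with earlier results of these data known. Genes named are the POLR1, POLR2 and POLR3 rows (1 is counted in the sums but its own values are not reported here), YEATS2, and in each list the genes called (at most the 4 largest). Other genes are marked. The alternatives were exactTest, DESeq2 1.42.0, other scalings, filters and thresholds, a replicate block and each library left out, in which case a lone library was assumed to vary like the others. Methods were tested on simulated data. Positions and lengths come from GENCODE v44lift37 on GRCh37, where all 31 identifiers matched. The letters of the NRF1 and YY1 motifs were shortened after a first search with longer ones, in which the same members matched.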

Additional observations from a re-analysis of the deposited data

How the results depend on the processing

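The count of RNA polymerase genes called at 0.01 depends on the test more than on the filter. The number lower was 0 in the fit reported and with DESeq2 size factors, total counts, either filter and without the POLR2J paralogs. It was 3 with exactTest, 3 with DESeq2, 1 with the upper quartile, 6 at an FDR under 0.05, and between 0 and 3 with each library left out, where 3 came without shYEATS2 replicate 1. The number higher was 1 with exactTest, 1 with total counts and 2 at an FDR under 0.05, and 0 with each library left out.

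Replicates with the same number share only that number in the labels. Their deviations from the group means correlated at 0.409 over 12123 genes, and a fit with the replicate number as a block called 4 members lower (POLR1E, POLR1C, POLR2D and POLR2E) and 1 higher (POLR3B). Over all genes it called 2715 lower and 2742 higher, against 1581 and 1630 without the block. ExactTest called 2497 lower and 2596 higher, and an FDR under 0.05 gave 3011 and 3093. With each library left out the counts ranged from 850 to 2024 lower and from 775 to 1971 higher. The lower count was 850 without shCtrl replicate 1 and 919 without shCtrl replicate 2, the higher count was 775, 882 and, without shYEATS2 replicate 2, 992. The cause was not tested.

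Total counts moved the class medians to -0.131 for Pol I (from -0.252), -0.193 for the pair shared by Pol I and III, -0.0836 for the subunits shared by all, -0.0326 for Pol II and 0.0642 for Pol III, and the upper quartile moved that of Pol II to -0.134. With each library left out, the medians ranged from -0.507 to -0.0219 for Pol I, from -0.157 to -0.103 for Pol II, from -0.103 to 0.00281 for Pol III, from -0.371 to -0.248 for the shared pair and from -0.242 to -0.163 for the subunits shared by all. No named gene reversed with a call on either side. Reads of genes at about 60 to 400 per library (the POLR2J copies) limit their precision.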

Other observations

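Of 17 genes for kinases and phosphatases of the Pol II C-terminal domain and their cyclins, 2 were called lower and 2 higher, near the 12.5% and 12.9% of all genes, with a median log2 fold change of 0.02. CDK12, a kinase of elongating Pol II, was lower (-0.51, FDR 0.00793, quasi-likelihood test of edgeR), as was the phosphatase SSU72 (-0.47, FDR 0.00748). The phosphatase CTDSPL (0.57, FDR 0.00713) and the cyclin CCNT2 (0.47, FDR 0.00689) were higher. Without shCtrl replicate 1, shCtrl replicate 2 and shYEATS2 replicate 2 in turn, the FDR of CDK12 was 0.0615, 0.0172 and 0.0225, that of SSU72 0.0597, 0.0335 and 0.0199, that of CTDSPL 0.0451, 0.0213 and 0.0191, and that of CCNT2 0.0411, 0.0530 and 0.0157. With total counts CDK12 (0.0165) and SSU72 (0.0182) did not pass.

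Of 5 genes for transcription in mitochondria, 2 were called lower and none higher, where 12.5% and 12.9% of all genes were, with a median of -0.27. TFAM, which packages and activates mitochondrial DNA, was lower (-0.78, FDR 0.00370), as was the initiation factor TFB2M (-0.71, FDR 0.00317). Without shCtrl replicate 1 their FDR values were 0.0111 and 0.0203. The mitochondrial RNA polymerase POLRMT, named outside the rule and not called, had a log2 fold change of -0.25 (FDR 0.131).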
